A study of Homo sapiens with 8 samples.

Results

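The expression of 55 genes of the synaptic vesicle and of regulated exocytosis was followed in 2 stable lines of SHSY5Y, a human neuroblastoma cell line of neural crest origin. A member of this group was counted where the array annotation gave a row exactly 1 symbol, and the row with the highest mean stood for a gene with several rows. By this rule 54 of the 55 members were analysed, of 18377 genes in all, and RIMS3 had no row. SYT2 and DOC2B had 2 rows each. The groups were V71 DF, V71 NDF, PLKO DF and PLKO NDF, with 2 biological replicates and 1 Affymetrix Human Gene 1.0 ST array per replicate. NDF cells grew on laminin in growth medium with serum. DF cells were differentiated on laminin, first during 5 days by retinoic acid at 10 µM and next during 3 days by BDNF at 2 nM in medium without serum. Both lines were made with lentiviral pLKO.1 constructs and kept under puromycin. V71 and PLKO are the codes in the sample titles. In the labels the treatment of V71 reads control and that of PLKO reads shRNA, whereas pLKO.1-Puro is the control vector in the methods, so the lines are called by their codes here and differences between them are V71 minus PLKO. The gene that the shRNA targets is not analysed here and therefore did not check the labels. There was 1 line per construct, and the methods do not say whether a line was 1 clone, so an effect of the shRNA and a difference between lines cannot be told apart.

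Neurons store transmitter in synaptic vesicles and release it when calcium enters the nerve ending. Vesicles are held by synapsins, brought to the active zone by RAB3 and its effectors, and made ready for fusion by priming factors of the UNC13 and CADPS families. Fusion is driven by the SNARE proteins SNAP25, syntaxin and VAMP, with synaptotagmins as calcium sensors, and the vesicle membrane is then recovered by endocytosis with clathrin adaptors and dynamin. SHSY5Y cells resemble immature sympathetic neuroblasts and can be driven by retinoic acid and BDNF to extend neurites.

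Of the 54 members, 42 had an entry among the RefSeq promoters of GRCh38.p14. The 250 bases before the start site are shown for 4 members with large changes, namely CADPS, SYT4 and SYT9, whose responses differed between the lines, and RPH3A, which fell most in both lines. They are printed 5′ to 3′ on the strand of the gene. Capitals mark the core hexamer of retinoic acid receptors (AGGTCA), the core of the cyclic AMP response element (TGACG, part of the full element TGACGTCA) and the right portion (GGACAGC) of RE1, the element bound by the neuronal repressor REST, each searched on both strands. The left portion of RE1, searched in the same way, was TTCAGCACC.
CADPS, chr3:62875417-62875666, minus strand: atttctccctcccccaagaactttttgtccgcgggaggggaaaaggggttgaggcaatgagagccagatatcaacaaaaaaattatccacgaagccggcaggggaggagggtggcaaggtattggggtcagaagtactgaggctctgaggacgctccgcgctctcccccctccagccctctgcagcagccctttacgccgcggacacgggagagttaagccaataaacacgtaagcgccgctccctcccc
SYT4, chr18:43277491-43277740, minus strand: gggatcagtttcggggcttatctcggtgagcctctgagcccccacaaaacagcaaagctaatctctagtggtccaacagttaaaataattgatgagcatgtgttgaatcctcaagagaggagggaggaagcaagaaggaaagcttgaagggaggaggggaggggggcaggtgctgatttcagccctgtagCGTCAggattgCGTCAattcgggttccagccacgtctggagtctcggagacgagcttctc
SYT9, chr11:7251654-7251903, plus strand: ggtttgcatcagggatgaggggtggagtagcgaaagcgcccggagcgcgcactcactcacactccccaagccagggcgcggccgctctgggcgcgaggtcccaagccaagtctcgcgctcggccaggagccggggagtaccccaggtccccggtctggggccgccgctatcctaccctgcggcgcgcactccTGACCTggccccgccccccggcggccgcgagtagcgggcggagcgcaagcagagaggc
RPH3A, chr12:112791498-112791747, plus strand, 1 of its 3 windows: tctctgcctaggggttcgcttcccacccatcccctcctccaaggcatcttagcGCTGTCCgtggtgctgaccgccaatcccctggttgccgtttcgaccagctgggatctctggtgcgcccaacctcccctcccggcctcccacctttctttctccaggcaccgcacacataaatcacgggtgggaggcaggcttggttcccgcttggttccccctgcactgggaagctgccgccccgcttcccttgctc

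The SYT4 window held the CRE core at 60 and 49 bases before the start. The SYT9 window held the receptor hexamer at 58 bases before the start, and the CADPS window held none of the motifs searched. Among the 42 members, AGGTCA was found in 5, against 12.1% of all 35116 windows of this length. TGACG was found in 11 members and in 21.2% of all windows, and TGACGTCA in SYN1 alone, against 1.65%. GGACAGC was found in 6 members and in 4.76% of all windows, while TTCAGCACC was found in SYN1 alone, against 0.288%. RPH3A was among the 6 through the printed window only, and its other 2 windows held none of the motifs searched. The 3 windows of RIMS1, not printed, held none either. The 42 members had 65 windows, and a member was counted where any of its windows matched, whereas the percentages are of single windows. These are unlike units, which raises the member side, and a match of letters is a description only.

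The deposited values are RMA values on a log2 scale, and all levels and differences below are on that scale. The lowest Spearman correlation of 2 arrays of the same group was 0.9947 and the highest of 2 arrays of different groups 0.9931, so each array was nearest to its own group. A gene was called at a fold of 1.5 or more with limma's adjusted p below 0.05, by Benjamini-Hochberg across the 28869 rows of the table. Of 13 analysed markers of the noradrenergic neuroblast, 12 lay above the median of the arrays in every group. The other was TH, with means of 4.31 in V71 DF, 4.41 in V71 NDF, 4.43 in PLKO DF and 4.28 in PLKO NDF. Upon differentiation 3 of the 13 rose in V71 (CHGB, ELAVL4 and TFAP2B) and 3 fell (SLC6A2, DBH and GATA3). In PLKO 1 rose (CHGB) and 1 fell (SLC6A2). Between the lines 1 was higher and 1 lower in V71 in DF, and 2 were higher and 1 lower in NDF. Of 7 analysed Schwann cell markers, limma called 0 in each of the 5 comparisons, with 0 to 2 at an unadjusted p under 0.05. Markers of the substrate-adherent (S-type) neuroblastoma cell, 29 of them analysed, moved with the lines in part. In NDF 8 of the 29 were lower in V71, and the sum of their signals on the linear scale was 1410 to 1490 in V71 and 2090 to 2120 in PLKO. In DF 4 were lower in V71, with sums of 1300 to 1350 in V71 and 1800 to 1830 in PLKO. Without PDGFRA the sums in DF were 1220 to 1280 in V71 and 1270 on both PLKO arrays, and in NDF 1330 to 1390 in V71 and 1560 to 1610 in PLKO. Upon differentiation 1 of the 29 fell in V71 and 7 in PLKO. No marker can be at 0 on this scale, and the 8 lower in V71 in NDF were VIM, FN1, SNAI2, PDGFRA, EGFR, DCN, LUM and TNC. The other 21 were not called, and the difference V71 minus PLKO was positive for 14 of the 29 in DF and for 10 in NDF, among them SPARC at 0.54 in NDF (adjusted p = 0.0185), below the fold threshold. Of 15 proliferation markers, 14 fell upon differentiation in V71 and all 15 in PLKO. In DF 9 of them were higher in V71, with sums of 1920 to 2020 in V71 and 1300 to 1410 in PLKO. In NDF 0 were called higher and 1 lower in V71, though the difference was positive for 14 of the 15. The sums in NDF were 4510 to 4610 in V71 and 4020 to 4120 in PLKO. The part of S-type cells and of proliferation in the results below was not tested. In such bulk samples, fewer cells of a type and less RNA per cell cannot be told apart.

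To examine how the exocytosis genes changed upon differentiation, DF was compared with NDF in each line. Retinoic acid, BDNF and the removal of serum differed together between DF and NDF, so their parts cannot be told apart. The comparisons share arrays, so their values are given side by side only. In V71 14 members rose and 2 fell, 29.6% of the 54, where 7.53% of all genes were called (3.98% higher and 3.55% lower). In PLKO 10 members rose and 2 fell, 22.2% of the 54, where 7.04% of all genes were called (2.88% higher and 4.16% lower). The median difference of the members was 0.26 in V71 and 0.19 in PLKO, beside -0.0036 and 0.013 over all genes. The members were chosen with earlier results of these data known. The study names SYT5, SYT9, SYT11 and synapsins from these same arrays, so these shares and medians are not independent evidence. They were not matched for expression level, and 38 members lay above the median of the arrays in all 4 groups. The rising members called in both lines were 8, namely SYT5, SYT9, SYT11, SYT13, SYN2, SYP, RAB3B and CADPS, and both falling members, RPH3A and DOC2B, were the same in the lines. SYT4, SNAP25, SYNGR3, RAB3A, RIMS1 and DNM3 were called in V71 and not in PLKO, and SV2C and PCLO in PLKO and not in V71. Whether these differ between the lines is tested below by the interaction. Without moderation of the variance, as in an analysis of variance, the calls were 10 in V71 and 8 in PLKO. The DF arrays lay wholly above the NDF arrays for 34 members and wholly below for 10 in V71, where 27.7% of all genes lay above and 27.3% below (55% in all). In PLKO they lay above for 33 members and below for 6, where 29.2% of all genes lay above and 25.9% below (55.1% in all).

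**Figure D1:**
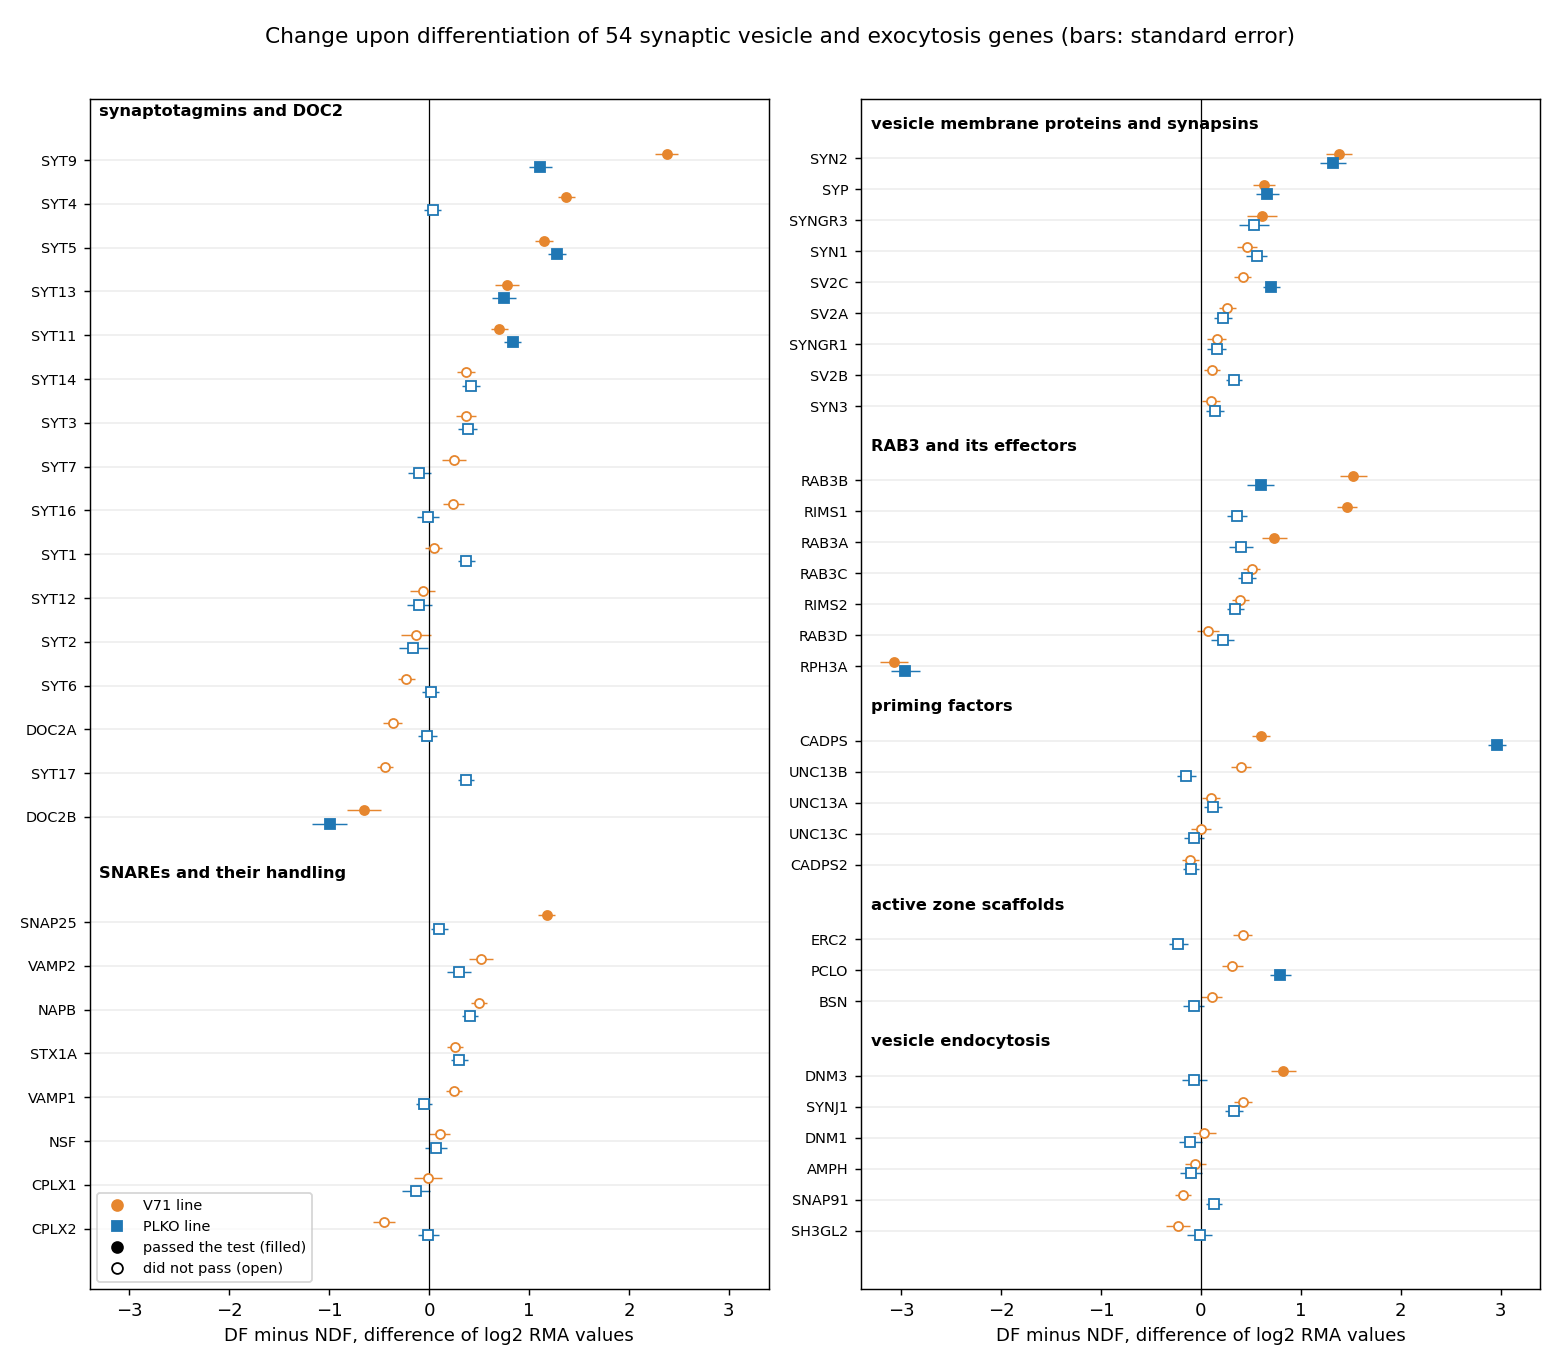
Difference DF minus NDF of log2 RMA values (x axis) for each of the 54 analysed members, grouped by role; orange circles are V71, blue squares PLKO, filled symbols passed the test and bars are standard errors of the fit. Most members lie right of 0, RPH3A lies near -3 in both lines, and CADPS, SYT4, SNAP25 and RIMS1 part the lines.

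Of the 16 synaptotagmins and DOC2 proteins, 5 rose and 1 fell in V71, and 4 rose and 1 fell in PLKO. SYT9, a fast calcium sensor that is used by a subset of neurons and by endocrine cells in mice, had values of 6.53 and 6.47 in V71 DF, against 3.94 and 4.30 in V71 NDF. In PLKO it had 5.64 and 5.61 in DF, against 4.49 and 4.54 in NDF. Both DF groups lay above both NDF groups, and the rise was 5.2-fold in V71 (log2 difference 2.38, standard error 0.12, adjusted p = 1.92e-06) and 2.16-fold in PLKO (1.11, standard error 0.12, adjusted p = 0.000173). SYT5, a sensor of dense-core and synaptic vesicles, had 7.05 and 6.96 in V71 DF, against 5.89 and 5.84 in V71 NDF, and 7.13 and 7.29 in PLKO DF, against 5.97 and 5.90 in PLKO NDF. Its rise was 2.21-fold in V71 (adjusted p = 3.56e-05) and 2.42-fold in PLKO (adjusted p = 1.48e-05), with no overlap of DF and NDF in either line.

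SYT11, a synaptotagmin that does not bind calcium and restrains vesicle recycling in mouse neurons, had 10.07 and 10.05 in V71 DF, against 9.32 and 9.40 in V71 NDF. In PLKO its values were 10.01 and 10.07 in DF, against 9.25 and 9.15 in NDF. The lines overlapped in DF, and the rises were 1.63-fold in V71 (adjusted p = 0.000503) and 1.79-fold in PLKO (adjusted p = 0.000142). SYT13, another member without calcium binding, had 5.01 and 4.71 in V71 DF, against 4.16 and 4.004 in V71 NDF, and 5.46 and 5.34 in PLKO DF, against 4.55 and 4.76 in PLKO NDF. It rose 1.72-fold in V71 (adjusted p = 0.00241) and 1.68-fold in PLKO (adjusted p = 0.00319). Neither SYT13 call was kept without moderation, where the adjusted p was 0.0712 in V71 and 0.0793 in PLKO.

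DOC2B, a calcium sensor of high affinity, ran the other way. Its values were 6.17 and 5.93 in V71 DF, against 6.56 and 6.85 in V71 NDF, and 5.64 and 5.10 in PLKO DF, against 6.31 and 6.42 in PLKO NDF. DF lay below NDF in both lines, by -0.65 in V71 (standard error 0.17, adjusted p = 0.035) and by -0.997 in PLKO (standard error 0.17, adjusted p = 0.00421). The other row of DOC2B stood at -0.53 in V71 (adjusted p = 0.0417) and -0.62 in PLKO (adjusted p = 0.0214). The call in V71 was lost without moderation (adjusted p = 0.236). It was also lost on leaving out PLKO NDF replicate 2 or 3 (both adjusted p = 0.0574), V71 NDF replicate 2 (0.0504) or 3 (0.193), or V71 DF replicate 1 (0.0636) or 2 (0.183). The call in PLKO was lost without moderation (adjusted p = 0.114).

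Of the other synaptotagmins and DOC2A, several changed by less than the fold threshold although their adjusted p was under 0.05. SYT3 stood at 0.37 in V71 and 0.38 in PLKO, and SYT14 at 0.37 and 0.42 in the same lines. SYT1, the main fast sensor of forebrain synapses, stood at 0.04 in V71 (adjusted p = 0.833) and at 0.37 in PLKO (adjusted p = 0.017). DOC2A stood at -0.37 in V71 (adjusted p = 0.0308) and at -0.02 in PLKO (adjusted p = 0.954). SYT2, SYT6, SYT7, SYT12 and SYT16 had an adjusted p of at least 0.114 in either line. Their differences ran between -0.23 and 0.25.

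Proteins of the vesicle membrane and synapsins had positive differences for all 9 analysed members in both lines and calls for 3 in each. The calls were 33.3% of the 9 in each line, beside 29.6% of the 54 members in V71 and 22.2% in PLKO. Differences were positive for 41 of the 54 members in V71 and 35 in PLKO. Of all 18377 genes they were positive for 9048 in V71 and 9741 in PLKO. SYN2, which tethers the reserve pool of vesicles, had 7.87 and 7.78 in V71 DF, against 6.26 and 6.63 in V71 NDF. In PLKO it had 7.50 and 7.72 in DF, against 6.26 and 6.30 in NDF. The rise of 2.61-fold in V71 (log2 difference 1.38, standard error 0.13, adjusted p = 9.73e-05) and of 2.51-fold in PLKO (1.33, standard error 0.13, adjusted p = 0.000107) gave no interaction call (0.06, standard error 0.18, adjusted p = 0.966). SYP, the classical marker of synaptic vesicles, had 7.72 and 7.53 in V71 DF, against 7.002 and 6.98 in V71 NDF, and 7.40 and 7.65 in PLKO DF, against 6.77 and 6.95 in PLKO NDF. It rose 1.55-fold in V71 (adjusted p = 0.00508) and 1.59-fold in PLKO (adjusted p = 0.00405), close to the threshold. The SYP call in V71 was lost without V71 DF replicate 1, at 0.54, and that in PLKO without PLKO NDF replicate 2, at 0.57, or PLKO DF replicate 2, at 0.54. Both were also lost without moderation (adjusted p = 0.0823 in V71 and 0.0768 in PLKO).

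SYNGR3, a synaptogyrin of the vesicle membrane, had 6.01 and 6.11 in V71 DF, against 5.21 and 5.69 in V71 NDF, and 6.20 and 5.95 in PLKO DF, against 5.54 and 5.56 in PLKO NDF. It was called in V71 at 0.61 (adjusted p = 0.0234) and stood at 0.53 in PLKO (adjusted p = 0.0457), below the fold threshold. The V71 call was lost without V71 NDF replicate 2 (0.37, adjusted p = 0.129), V71 DF replicate 1 (0.66, adjusted p = 0.0737) or V71 DF replicate 2 (0.57, adjusted p = 0.114). It was also lost without moderation (adjusted p = 0.19) and with only the 4 V71 arrays in the fit (adjusted p = 0.0528). SV2C, the SV2 glycoprotein of basal ganglia neurons and a receptor of botulinum toxin A, had 8.95 and 9.03 in V71 DF, against 8.55 and 8.59 in V71 NDF, and 9.68 and 9.69 in PLKO DF, against 9.04 and 8.91 in PLKO NDF. It rose 1.63-fold in PLKO (0.71, adjusted p = 0.000471) and stood at 0.42 in V71 (adjusted p = 0.01). SYN1 stood at 0.46 in V71 (adjusted p = 0.015) and 0.56 in PLKO (adjusted p = 0.00587), under the fold threshold. SV2A, SV2B, SYN3 and SYNGR1 stood between 0.10 and 0.34 over both lines. Of these, SV2B in PLKO had an adjusted p of 0.0233, with its levels below the lower quartile of the arrays.

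RPH3A, encoding rabphilin, a RAB3 effector that also binds SNAP25, had the steepest fall of all members. Its values were 4.29 and 4.002 in V71 DF, against 7.02 and 7.41 in V71 NDF, and 3.89 and 4.06 in PLKO DF, against 6.99 and 6.87 in PLKO NDF. DF and NDF were far apart in both lines while the lines overlapped in DF. The fall was 8.4-fold in V71 (log2 difference -3.07, standard error 0.14, adjusted p = 1.55e-06) and 7.76-fold in PLKO (-2.96, standard error 0.14, adjusted p = 1.92e-06), and the interaction was -0.11 (standard error 0.20, adjusted p = 0.935). Every alternative setting kept both calls.

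The RAB3 GTPases themselves, which mark vesicles for docking, had positive differences in both lines. RAB3B had 5.38 and 5.36 in V71 DF, against 4.05 and 3.64 in V71 NDF, and 4.62 and 4.45 in PLKO DF, against 4.01 and 3.85 in PLKO NDF. It rose 2.88-fold in V71 (1.53, standard error 0.13, adjusted p = 6.85e-05) and 1.52-fold in PLKO (0.60, standard error 0.13, adjusted p = 0.0164). The PLKO call was lost under cyclic loess (0.58), without moderation (adjusted p = 0.156), and without PLKO NDF replicate 3 (0.52, adjusted p = 0.138) or PLKO DF replicate 1 (0.52, adjusted p = 0.101). RAB3A, the main RAB3 of brain, had 6.81 and 6.52 in V71 DF, against 5.78 and 6.08 in V71 NDF, and 6.88 and 6.93 in PLKO DF, against 6.49 and 6.51 in PLKO NDF. It rose 1.66-fold in V71 (adjusted p = 0.00345, and 0.0808 without moderation) and stood at 0.40 in PLKO (adjusted p = 0.0648). RAB3C stood at 0.51 in V71 and 0.46 in PLKO, and RIMS2 at 0.40 and 0.35 in these lines, all with an adjusted p under 0.05 but below the fold threshold, and RAB3D stood at 0.07 and 0.22 (adjusted p = 0.782 in V71 and 0.286 in PLKO).

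Of 8 SNAREs and proteins that handle them, SNAP25 rose in V71 and none passed in PLKO by limma, where 3 had an unadjusted p under 0.05. VAMP2, the vesicle SNARE, stood at 0.51 in V71 (adjusted p = 0.02) and 0.30 in PLKO (adjusted p = 0.164), and NAPB, which works with NSF to take SNARE complexes apart, at 0.50 in V71 (adjusted p = 0.00339) and 0.41 in PLKO (adjusted p = 0.0103). STX1A, the plasma membrane syntaxin, stood at 0.26 in V71 (adjusted p = 0.0737) and 0.30 in PLKO (adjusted p = 0.0379). CPLX2, a complexin that clamps the assembled SNAREs, stood at -0.46 in V71 (adjusted p = 0.0225) and -0.01 in PLKO (adjusted p = 0.985). CPLX1, VAMP1 and NSF stood between -0.13 and 0.25, with an adjusted p of at least 0.0905.

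Among scaffolds of the active zone, PCLO, the giant protein piccolo, had 6.43 and 6.60 in V71 DF, against 6.21 and 6.19 in V71 NDF. Its values were 6.49 and 6.73 in PLKO DF, against 5.86 and 5.78 in PLKO NDF. It rose 1.74-fold in PLKO (0.80, standard error 0.11, adjusted p = 0.000829) and stood at 0.31 in V71 (adjusted p = 0.088), and the interaction of -0.48 did not pass (adjusted p = 0.273). BSN, the related scaffold bassoon, stood at 0.11 in V71 and -0.07 in PLKO (adjusted p = 0.631 in V71 and 0.791 in PLKO). ERC2 stood at 0.42 in V71 (adjusted p = 0.0161) and -0.22 in PLKO (adjusted p = 0.175).

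Of 6 endocytosis members, DNM3, a brain dynamin that cuts vesicles from the membrane, was called upon differentiation. It had 4.89 and 4.61 in V71 DF, against 3.93 and 3.91 in V71 NDF, and 4.11 and 4.37 in PLKO DF, against 4.24 and 4.38 in PLKO NDF. V71 DF lay above all other arrays, with a rise of 1.77-fold (0.83, standard error 0.12, adjusted p = 0.00169, and 0.0635 without moderation), against -0.06 in PLKO (adjusted p = 0.843). SYNJ1, the phosphatase that sheds the clathrin coat, stood at 0.42 in V71 (adjusted p = 0.0141) and 0.33 in PLKO (adjusted p = 0.044). SNAP91, AMPH, DNM1 and SH3GL2 stood between -0.23 and 0.13, with an adjusted p of at least 0.221.

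**Figure D2:**
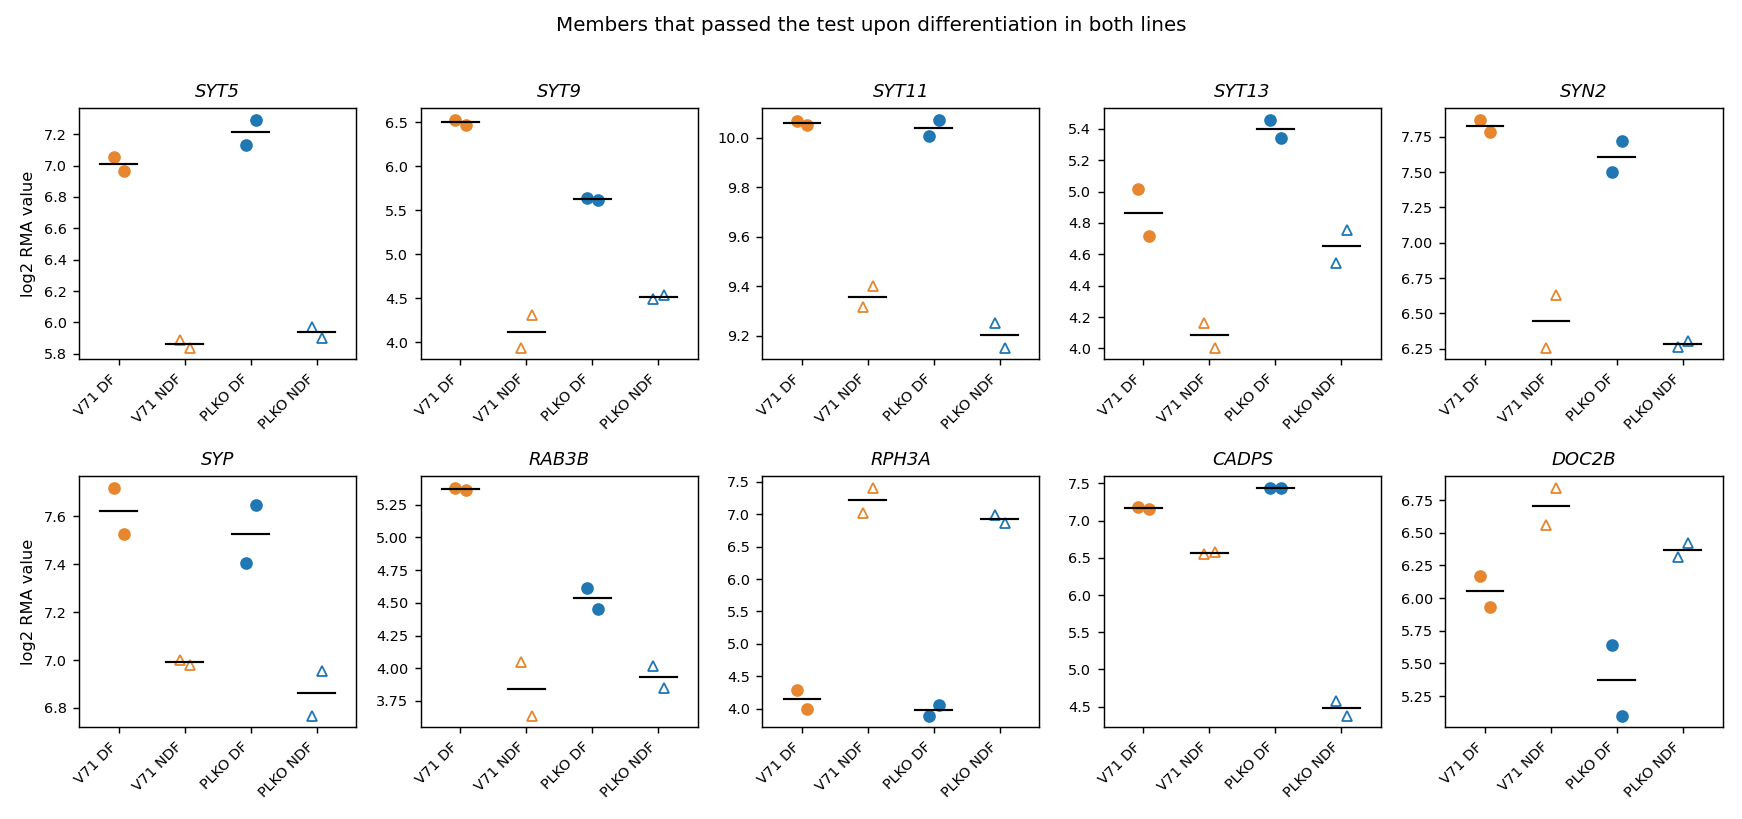
Log2 RMA value of each array (y axis, with its own range in each panel) for the 10 members called in the same direction in both lines; filled circles are DF, open triangles NDF, orange V71 and blue PLKO, and black bars are means of 2 arrays. RPH3A and DOC2B are lower in DF, the other 8 members are higher in DF, and CADPS starts far lower in PLKO NDF than in V71 NDF.

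The interaction asked whether the change upon differentiation differed between the lines. Of the 54 members 6 were called, 4 more positive and 2 more negative in V71, which is 11.1%, where 1.39% of all genes were called (1.09% more positive and 0.305% more negative). The study names SYT4, SYT9, CADPS, SNAP25 and SYT17 from these same arrays, so they are not independent evidence. The change was more positive in V71 for SYT4, SYT9, SNAP25 and RIMS1 and more negative for CADPS and SYT17. Without moderation 0 of these 6 were called, with an adjusted p of 0.0637 to 0.247, while in that fit 9 members reached a fold of 1.5 at an unadjusted p below 0.05.

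CADPS, which primes dense-core and synaptic vesicles for fusion in response to calcium, held the largest line-dependent response of the members. Its values were 7.18 and 7.16 in V71 DF, against 6.55 and 6.58 in V71 NDF, and 7.44 and 7.45 in PLKO DF, against 4.58 and 4.38 in PLKO NDF. PLKO NDF lay far below the other groups, and the PLKO DF arrays lay above the V71 DF arrays by less than the test could call (-0.27, adjusted p = 0.145). The rise was 1.52-fold in V71 (0.60, standard error 0.09, adjusted p = 0.00179) and 7.8-fold in PLKO (2.96, standard error 0.09, adjusted p = 2.98e-07), an interaction of -2.36 (standard error 0.13, adjusted p = 9.28e-05). Its relative CADPS2 lay below the lower quartile of the arrays in all 4 groups.

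SYT4, a synaptotagmin of dense-core vesicles that regulates the release of BDNF in mouse neurons, had 9.77 and 9.73 in V71 DF, against 8.44 and 8.30 in V71 NDF. In PLKO it had 9.32 and 9.33 in DF, against 9.25 and 9.32 in NDF. V71 lay lowest in NDF and highest in DF, while DF and NDF overlapped in PLKO. The rise was 2.59-fold in V71 (1.37, standard error 0.09, adjusted p = 9.92e-06), against 0.04 in PLKO (adjusted p = 0.885), and the interaction was 1.34 (standard error 0.12, adjusted p = 0.000777).

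SNAP25, the plasma membrane SNARE that synaptotagmins and rabphilin bind, followed the same order of groups. It had 9.71 and 9.59 in V71 DF, against 8.44 and 8.50 in V71 NDF, and 8.96 and 9.03 in PLKO DF, against 8.90 and 8.89 in PLKO NDF. The rise was 2.26-fold in V71 (1.18, standard error 0.09, adjusted p = 2.1e-05), against 0.10 in PLKO (adjusted p = 0.585), and the interaction was 1.08 (standard error 0.12, adjusted p = 0.00277).

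RIMS1, an active zone scaffold that binds RAB3 and UNC13, had 6.02 and 6.13 in V71 DF, against 4.73 and 4.50 in V71 NDF, and 5.13 and 5.13 in PLKO DF, against 4.84 and 4.70 in PLKO NDF. The lines overlapped in NDF and were apart in DF. It rose 2.76-fold in V71 (1.46, standard error 0.10, adjusted p = 1.8e-05) and stood at 0.36 in PLKO (adjusted p = 0.0485), with an interaction of 1.10 (standard error 0.14, adjusted p = 0.00671). For SYT9, whose values are given above, the interaction was 1.26 (standard error 0.16, adjusted p = 0.00631).

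SYT17, an atypical synaptotagmin without a transmembrane segment, moved in opposite directions, each by less than 1.5-fold. Its values were 5.75 and 5.65 in V71 DF, against 6.13 and 6.14 in V71 NDF, and 6.48 and 6.48 in PLKO DF, against 6.14 and 6.09 in PLKO NDF. The lines overlapped in NDF, and in DF V71 lay below and PLKO above that level. The differences were -0.44 in V71 (adjusted p = 0.00604) and 0.37 in PLKO (adjusted p = 0.0157), and the interaction was -0.81 (standard error 0.12, adjusted p = 0.0106). This call was lost without PLKO NDF replicate 2 (-0.83, adjusted p = 0.0558) or PLKO NDF replicate 3 (-0.78, adjusted p = 0.0802). RAB3B at 0.93 (adjusted p = 0.0663), DNM3 at 0.89 (adjusted p = 0.0536) and ERC2 at 0.64 (adjusted p = 0.0678) did not pass the interaction test.

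**Figure D3:**
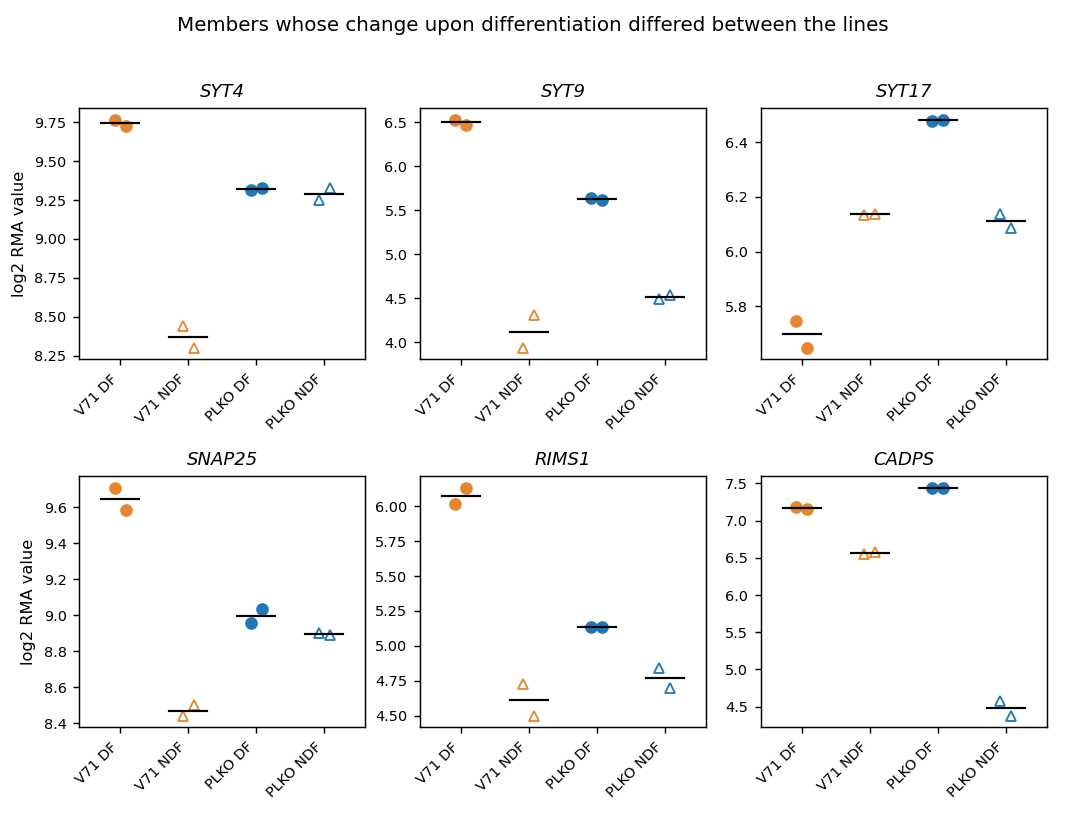
Log2 RMA value of each array (y axis, with its own range in each panel) for the 6 members with an interaction called by limma; filled circles are DF, open triangles NDF, orange V71 and blue PLKO, and black bars are means of 2 arrays. The means of SYT4, SYT9, SNAP25 and RIMS1 are lowest in V71 NDF and highest in V71 DF, with the lines overlapping in NDF for RIMS1. CADPS is low only in PLKO NDF.

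To examine the members that differed between the lines before differentiation, V71 was compared with PLKO in NDF. Of the 54 members 1 was higher and 2 were lower in V71, 5.56%, where 2.15% of all genes were called (0.615% higher and 1.54% lower). Of these the study lists CADPS and SYT4 from these same arrays, so the share is not independent evidence. CADPS was the higher one, with 6.55 and 6.58 in V71 NDF, against 4.58 and 4.38 in PLKO NDF. This was a 4.25-fold difference (2.09, standard error 0.09, adjusted p = 5.83e-06). SYT4 was the lower of the others, with 8.44 and 8.30 in V71 NDF, against 9.25 and 9.32 in PLKO NDF, a log2 difference of -0.91 (standard error 0.09, adjusted p = 0.00037). SYT16, a synaptotagmin without calcium binding, had 4.49 and 4.80 in V71 NDF, against 5.38 and 5.41 in PLKO NDF, a difference of -0.75 (standard error 0.11, adjusted p = 0.00519). The SYT16 call was lost without PLKO NDF replicate 2 (-0.76, adjusted p = 0.0535), without PLKO NDF replicate 3 (-0.74, adjusted p = 0.062) and without moderation (adjusted p = 0.142). A further 6 members were lower in V71 at an adjusted p under 0.05 but below the fold threshold, namely SYT13 at -0.57, SNAP25 at -0.43, SNAP91 at -0.40, SV2C at -0.41, RAB3A at -0.57 and ERC2 at -0.57. The V71 NDF arrays lay wholly above the PLKO NDF arrays for 15 members and wholly below for 21, where 26% of all genes lay above and 21.5% below (47.5% in all). In the same comparison 8 of 29 S-type markers were lower in V71, as given above.

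In DF, V71 and PLKO differed in 7 members, 4 higher and 3 lower in V71, 13% of the 54, where 3.06% of all genes were called (1.81% higher and 1.26% lower). Of the 7 the study lists SNAP25, SNAP91, SV2C and SYT17 from these same arrays, so this share is not independent evidence either. The V71 DF arrays lay wholly above the PLKO DF arrays for 16 members and wholly below for 14, where 24.6% of all genes lay above and 21.1% below (45.7% in all). None of the 7 was among the 3 called in NDF. RIMS1 was 1.92-fold higher in V71 (0.94, standard error 0.10, adjusted p = 0.000815), SYT9 1.83-fold (0.87, standard error 0.12, adjusted p = 0.00264), RAB3B 1.79-fold (0.84, standard error 0.13, adjusted p = 0.00661) and SNAP25 1.57-fold (0.65, standard error 0.09, adjusted p = 0.0023). In each of these the V71 DF arrays lay above the PLKO DF arrays. Without moderation the calls of RIMS1 (adjusted p = 0.0623), SYT9 (0.104) and RAB3B (0.153) were lost, and that of RAB3B also without V71 DF replicate 1 (adjusted p = 0.0506). In the same comparison 9 of 15 proliferation markers were higher and 4 of 29 S-type markers lower in V71.

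The 3 lower members were SYT17, SNAP91 and SV2C. SYT17 had 5.75 and 5.65 in V71 DF, against 6.48 and 6.48 in PLKO DF (-0.78, standard error 0.08, adjusted p = 0.000639). SNAP91, encoding AP180, an assembly protein of clathrin coats, had 8.05 and 8.10 in V71 DF, against 8.76 and 8.80 in PLKO DF, a difference of -0.71 (standard error 0.08, adjusted p = 0.00107). In NDF it had 8.28 and 8.22 in V71, against 8.65 and 8.66 in PLKO, so the lines did not overlap in either condition. SV2C had 8.95 and 9.03 in V71 DF, against 9.68 and 9.69 in PLKO DF, a difference of -0.69 (standard error 0.09, adjusted p = 0.00168). For SNAP91 and SV2C the change in the line difference was not called (interaction -0.31, adjusted p = 0.412, and -0.29, adjusted p = 0.51). SYT4 was 0.42 higher in V71 in DF (adjusted p = 0.0225), UNC13B 0.47 (adjusted p = 0.0222) and DNM3 0.51 (adjusted p = 0.0469), while SYT13 at -0.54, SYT16 at -0.50 and RAB3D at -0.55 were lower, all below the fold threshold. CADPS stood at -0.27 in DF (adjusted p = 0.145) and DOC2B at 0.68 (adjusted p = 0.056).

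**Figure D4:**
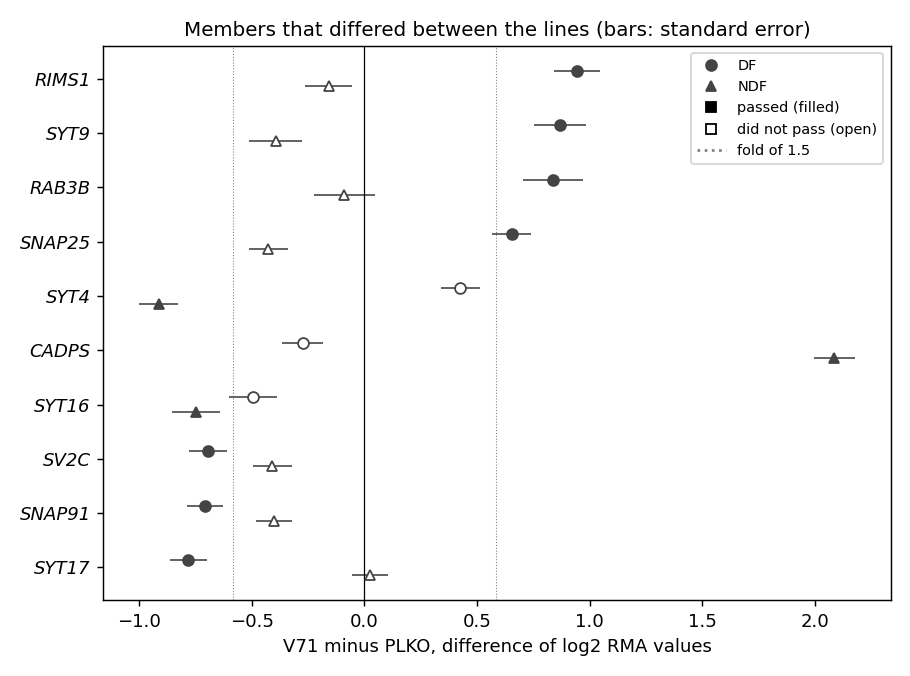
Difference V71 minus PLKO of log2 RMA values (x axis) in DF (circles) and NDF (triangles) for the 10 members called in either condition; filled symbols passed the test, bars are standard errors of the fit and dotted lines mark a fold of 1.5. CADPS is higher in V71 in NDF alone. SYT16, SNAP91 and SV2C lie left of 0 in both conditions. The others lie on opposite sides of 0 in NDF and DF, with RAB3B (-0.09) and SYT17 (0.02) close to 0 in NDF.

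The other 33 members were called in no comparison. Among them differences between the lines ran between -0.57 (ERC2) and 0.37 (CPLX2) in NDF and between -0.55 (RAB3D) and 0.47 (UNC13B) in DF. Changes upon differentiation ran between -0.46 (CPLX2) and 0.51 (VAMP2) in V71 and between -0.22 (ERC2) and 0.56 (SYN1) in PLKO. SV2B, UNC13C and CADPS2 lay below the lower quartile of the arrays in all 4 groups, where background may hide a change, and 38 members lay above the median in all 4 groups. UNC13A, the main priming factor of excitatory synapses, stood at 0.08 between the lines in NDF and 0.05 in DF, and at 0.10 in V71 and 0.13 in PLKO upon differentiation (adjusted p of at least 0.486). UNC13B changed upon differentiation by 0.40 in V71 (adjusted p = 0.0223) and -0.14 in PLKO (adjusted p = 0.443). The interaction of UNC13B, at 0.55, did not pass (adjusted p = 0.14). UNC13C stood at 0.002 in V71 and -0.07 in PLKO, and CADPS2 at -0.10 in both.

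Beyond the members, 69 further genes of vesicle fusion, docking, endocytosis and transmitter loading were analysed. Upon differentiation 5 rose and 1 fell in V71, 8.7% of them beside 7.53% of all genes, and 2 rose in PLKO, 2.9% beside 7.04% of all genes. Their median difference was 0.10 in V71 and 0.10 in PLKO. Between the lines 4 were called in DF (5.8%, beside 3.06% of all genes) and 1 in NDF (1.45%, beside 2.15%). STXBP5, encoding tomosyn, which competes with VAMP2 for the target SNAREs, rose 3.06-fold in V71 (1.61, standard error 0.11, adjusted p = 1.82e-05), with 8.88 and 8.99 in V71 DF, against 7.38 and 7.26 in V71 NDF. In PLKO it had 7.52 and 7.84 in DF, against 7.25 and 7.22 in NDF. Its interaction was 1.17 (standard error 0.16, adjusted p = 0.00859). It was the only one called among the 69, 1.45% of them beside 1.39% of all genes. The alternative settings were followed for members only, so calls of these 69 genes were not checked without moderation. RAB27B, a GTPase of secretory granules, rose 2.54-fold in V71 (adjusted p = 0.00017) and 5.01-fold in PLKO (adjusted p = 4.86e-06), and the vesicular monoamine transporter SLC18A1 rose 2.32-fold in V71 (adjusted p = 0.00013) and 1.58-fold in PLKO (adjusted p = 0.0051). SLC18A2, the neuronal monoamine transporter, fell by 0.78 on the log2 scale in V71 (adjusted p = 0.00357), with 3.22 and 2.78 in V71 DF, against 3.82 and 3.73 in V71 NDF. Its V71 DF mean lay below the lower quartile of the arrays, and in PLKO it stood at -0.16 (adjusted p = 0.572). Between the lines, AP2M1, a subunit of the clathrin adaptor, was lower in V71 in both DF (-0.68, adjusted p = 0.00459) and NDF (-0.59, adjusted p = 0.0156). The fold of AP2M1 in NDF was 1.5004, at the threshold of 1.5. In DF STXBP5 was 2.38-fold higher in V71 (adjusted p = 0.000263), SYPL1 1.57-fold (adjusted p = 0.00901), and RAB27B was lower, at -0.95 (adjusted p = 0.00396).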

How the data were processed

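Total RNA of 8 SHSY5Y cultures was hybridized to Affymetrix Human Gene 1.0 ST arrays. The deposited values are log2 signals that the authors obtained with RMA (Partek 6.5), used with no further normalization. The table has 28869 rows, of which 19310 carry 1 gene symbol, 1752 several and 7807 none in the platform annotation. Some genes that the paper names are not analysed here.

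Groups follow the title codes. The means of the 4 groups were estimated for every row in limma 3.58.1 (R 4.3.3), and eBayes moderated the variances, adding 5.43 prior to 4 residual degrees of freedom. The methods name an analysis of variance, false discovery rate adjustment and a fold of 1.5, and the same fit without moderation was an alternative. The fit was tested on simulated data. The number of arrays limits the precision, and detection calls were not used here. The members and the gene lists were chosen with earlier results of these data known. Lists covered other genes of the pathway and markers of noradrenergic neuroblasts, substrate-adherent cells, Schwann cells and proliferation. Every member called in any comparison, and SYT4, CADPS, PCLO, SNAP25, SNAP91, SV2C and SYT17, which the study lists, were named with values, the other members with differences, and of other pathway genes up to 4 called per comparison. The study picked those on these arrays, from which it also names SYT5, SYT9, SYT11 and synapsins. Alternatives were no moderation, other fold thresholds, another normalization, array weights, another prior, a filter on dim rows, other rows of a gene, fewer arrays in the fit, a replicate block and leaving out each array.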

Additional observations from a re-analysis of the deposited data

Results flagged for a closer look

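For 6 members the change upon differentiation differed between the lines by limma's interaction test, on the log2 scale as V71 change minus PLKO change. The values were 1.34 for SYT4 (adjusted p = 0.000777), 1.26 for SYT9 (adjusted p = 0.00631), 1.08 for SNAP25 (adjusted p = 0.00277) and 1.10 for RIMS1 (adjusted p = 0.00671). CADPS stood at -2.36 (adjusted p = 9.28e-05) and SYT17 at -0.81 (adjusted p = 0.0106). Without moderation of the variance none of the 6 passed, with an adjusted p of 0.0637 to 0.247.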

How the results depend on the processing

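Over the 5 comparisons the members gave 44 calls, of which 24 were kept under every alternative except a fold of at least 2. Without moderation 20 calls were lost, without some array 8, under another normalization 1, and with the other row of a gene 1, and the cause was not tested. Without moderation 4 of the 7 members called between the lines in DF passed, 10 of the 16 upon differentiation in V71, and 0 of the 6 interactions. At a fold of at least 2, 1 member passed between the lines in NDF and 0 in DF (0 also at an unadjusted p under 0.05), and 8 passed upon differentiation in V71 and 5 in PLKO. With no fold threshold, 9 passed between the lines in NDF, 13 in DF, 30 upon differentiation in V71 and 25 in PLKO. Leaving out each array in turn gave 2 to 4 calls in NDF, 7 to 9 in DF, 13 to 17 in V71, 11 to 12 in PLKO and 5 to 7 interactions. No call of a member reversed. The replicate numbers are shared between the lines within a condition, but nothing says that they pair arrays, and deviations of same-numbered arrays correlated at -0.176 in NDF and 0.188 in DF. With the replicate number as a block 3 members passed in NDF and 8 in DF. With the numbers crossed in NDF, chosen after seeing the data, 3 passed. No paired analysis was possible for DF against NDF because the conditions share 1 number.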
